A study of Mus musculus with 8 samples.

Results

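The genes described here build, feed, copy and shape mitochondria. They were taken by symbol: every gene named Tomm or Timm with a number, the subunits and helpers of the protein translocases, and 21 named genes for regulators of mitochondrial biogenesis, upkeep of mitochondrial DNA (mtDNA), fusion and fission, and mitochondrial chaperones and proteases. The rule used symbols only and no measured value. It found 56 probes for 37 genes among the 25697 probes and 18138 gene symbols of the table. Of the 21 named genes, Pink1 and Lonp1 had no probe under that symbol and were not analysed here.

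RNA came from cultured skin fibroblasts of 8 mice aged 12 months and was hybridised to Illumina MouseRef-8 v2.0 arrays, 1 per mouse. The Nd2-mutant mice were C57BL/6J-mtALR/LtJ (28 and 32 male, 34 and 35 female), and the control mice were C57BL/6J-mtAKR/J (16 and 17 male, 15 and 37 female). Both strains are conplastic, which means that the nuclear genome is that of C57BL/6J while the mtDNA comes from the donor strain, so the controls carry foreign mtDNA as well. The ALR/LtJ mtDNA encodes a leucine-to-methionine exchange in mt-Nd2, a subunit of respiratory complex I, and the comparison asks whether fibroblasts with it differ in nuclear transcripts.

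Nearly all mitochondrial proteins are encoded in the nucleus, made in the cytosol and imported through the TOM complex of the outer membrane and the TIM complexes of the inner membrane. PGC-1 coactivators work with transcription factors such as NRF1 and GABP to raise the genes for respiration and for Tfam. The Tfam protein packages mtDNA and helps start its transcription. Mitofusins and Opa1 fuse mitochondria, Dnm1l and Fis1 take part in dividing them, and Hspd1, Hspe1, Hspa9 and Clpp fold, pull in or degrade proteins of the matrix.

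Values are deposited intensities on the linear scale, background-subtracted and quantile normalized by the authors. At a detection p-value under 0.01, every Nd2-mutant array had more detected probes (10973 to 11350) than any control array (10663 to 10837), and the part of this in the results was not tested. In all, 10414 probes of 8003 genes were tested with limma on log2(intensity + 16), each detected on 4 of 4 arrays in 1 or both strains. A log2 fold change is the Nd2-mutant minus the control mean on that scale, which understates changes of dim probes. The array of control mouse 15 stood apart, its mean correlation to the 7 others being 0.934, against 0.963 to 0.974 for the rest. Of 9 fibroblast marker genes, 8 were detected on all 8 arrays. Fap was the exception, detected on 7. The summed fibroblast signal was 36408 to 41862 in Nd2-mutant and 29363 to 43456 in control cultures. The 11 macrophage markers summed to 237 to 629.9 on the other 7 arrays and to 2005 on that of Nd2 mutant 35, although Ptprc was detected on no array. Endothelial markers summed to 80.1 to 182 in Nd2-mutant and 64.8 to 339 in control cultures, highest on the array of control 15. The part of these markers in the results was not tested. Kdr, an endothelial marker, was detected on no array. Keratinocyte markers summed to 195 to 1149 in Nd2-mutant and 314 to 930 in control cultures, of which Krt14 alone ranged from 38.3 to 1007. Krt10 ranged only from 90.9 to 150, while Krt5 was detected on 1 array and Cdh1 on 2. Skeletal muscle markers summed to 283 to 985 in Nd2-mutant and 793 to 1269 in control cultures, mostly from Acta1, while Ckm and Myh4 were not detected. The adipocyte markers summed to at most 11.7, with Cidec and Fabp4 detected on no array. In such bulk RNA, fewer cells of a type and less RNA per cell cannot be told apart.

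Of the 56 probes, 39 passed the filter. They belong to 27 of the 37 genes, and each was detected on 8 of 8 arrays. No member passed limma's test once p-values were adjusted by Benjamini and Hochberg's method over the whole table, and the smallest adjusted p among them was 0.639. The same held for the whole table, where 0 probes passed (0%). At an unadjusted limma p under 0.05 there was 1 member probe, for the mitofusin Mfn1, which is 2.56% of the members against 7.63% of all tested probes (3.13% lower and 4.5% higher in Nd2-mutant cells). The methods' t-test gave 4 member probes at an unadjusted p under 0.05 (6.7% of all tested probes), 3 lower and 1 higher, and 0 after adjustment (0.0096% of all). It was run on log2(intensity + 16), and on linear intensities it also gave 3 lower and 1 higher. Differences were small: 23 member probes were lower (59.0%; 49.8% of all) and 16 higher in Nd2-mutant cells, the median log2 fold change was -0.03, and the median of all tested probes was 0.00. A log2 fold change beyond 0.5 in either direction was seen for 1 member probe (2.56%), against 7.41% of all tested probes. The 95% interval lay within -1 to 1 for 38 of 39 member probes but within -0.5 to 0.5 for only 17, and a p that missed the threshold does not show that the strains were alike.

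**Figure D1:**
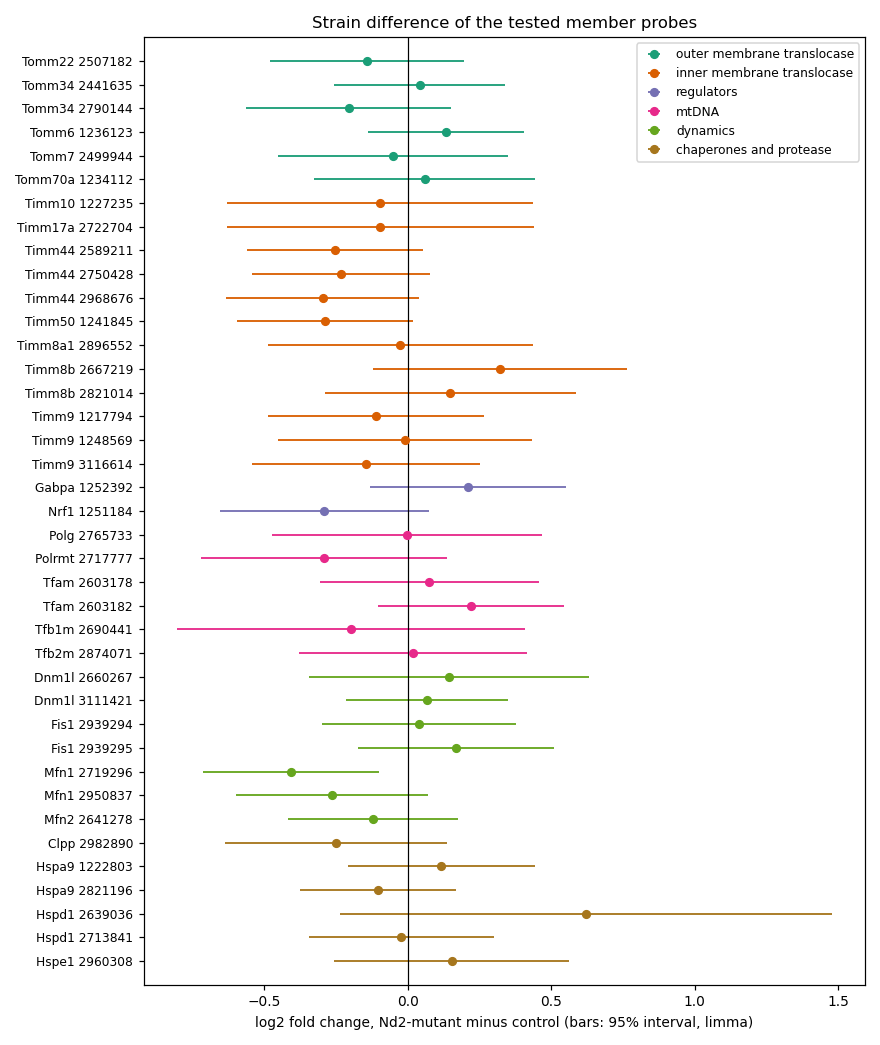
Log2 fold change, Nd2-mutant minus control, of the 39 tested member probes (x axis, log2 of intensity + 16), 1 row per probe and coloured by function; points are limma estimates and bars 95% intervals. The estimates run from -0.41 (Mfn1) to 0.62 (Hspd1), and 1 of 39 intervals leaves out 0.

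The strains did not overlap at 2 member probes, those of Mfn1 and Nrf1, both lower in Nd2-mutant cells. That is 5.13% of the member probes, against 4.37% of all tested probes in either direction, 2.13% lower and 2.24% higher.

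The smallest p among the members was that of Mfn1, an outer-membrane GTPase that tethers and fuses mitochondria. On probe ILMN_2719296 the intensities were 240.2, 265, 247 and 220.4 in Nd2-mutant mice 28, 32, 34 and 35, and 387, 329, 290.4 and 308 in control mice 15, 16, 17 and 37. Every Nd2-mutant value lay below every control value, with means of 243 ± 18.5 and 329 ± 41.9 (SD, n = 4 each). The log2 fold change was -0.41 (SE 0.14, 95% interval -0.71 to -0.10), with a limma p of 0.0144, adjusted p = 0.639, and an exact 2-sided permutation p of 0.0286, the smallest that 4 against 4 can give. The second detected probe, ILMN_2950837, read 264, 338, 322 and 271 in the Nd2-mutant mice and 416, 391, 311 and 333 in the controls in the same order of mice. Here the groups overlapped, because controls 17 and 37 lay within the Nd2-mutant range, and the log2 fold change was -0.27 (SE 0.15; exact permutation p = 0.143). The third Mfn1 probe was detected on no array, at -3.27 to 0.664. Both detected probes were lower in each sex, by -0.28 and -0.21 in males and -0.54 and -0.32 in females, which rest on 2 mice per strain and sex. Leaving out any 1 mouse kept the log2 fold change of ILMN_2719296 between -0.46 and -0.33, but with control 15 and Nd2 mutant 35 both left out it was -0.29, with an unadjusted limma p of 0.0593, and the groups still did not overlap.

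The 250 bases before the Mfn1 start site, and those before Tfam below, are shown because GABP and NRF1 are the textbook regulators of such genes. Promoter windows of RefSeq (GRCm38.p6, 250 bases before to 50 after each start) were searched on both strands for the ETS motif that GABP binds, CCGGAAG, and for the NRF1 core motif. A window may hold both. Capitals mark the ETS match, on the strand of the gene, chr3:32529232-32529481 (+).
Mfn1: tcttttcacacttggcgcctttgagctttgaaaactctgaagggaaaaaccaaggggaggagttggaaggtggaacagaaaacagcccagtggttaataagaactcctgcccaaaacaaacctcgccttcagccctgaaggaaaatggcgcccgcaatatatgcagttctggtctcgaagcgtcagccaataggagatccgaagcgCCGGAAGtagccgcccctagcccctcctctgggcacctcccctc

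Mfn2, the paralog of Mfn1, was measured by 1 probe at 1054, 1079, 1120.3 and 918 in Nd2-mutant mice 28, 32, 34 and 35 and at 1057, 1285, 1092 and 1110.5 in control mice 15, 16, 17 and 37. The groups overlapped and differed by less than the spread between mice (log2 fold change -0.12, SE 0.13; limma, adjusted p = 0.796; exact permutation p = 0.257). Opa1, the fusion GTPase of the inner membrane, was not tested, as its 3 probes were detected on at most 3 arrays each. ILMN_1218742 read 12.1, 20.6, 9.21 and 4.96 in Nd2-mutant and 5.21, 0.902, 19.2 and 8.04 in control mice, and the other Opa1 probes lay between 1.09 and 14.2 in Nd2-mutant and between -2.31 and 9.2 in control mice. Of the fission genes, Dnm1l, the dynamin-related GTPase that constricts mitochondria, read 223, 229.8, 229.6 and 232 in Nd2-mutant and 189.7, 226, 215 and 241 in control mice on probe ILMN_3111421. All 4 Nd2-mutant values fell inside the control range, at a log2 fold change of 0.07 (SE 0.13), which was 0.0058 without control 15. The other Dnm1l probe read 98.0, 66.4, 75.0 and 69.2 against 48.5, 47.7, 93.7 and 92.7, with controls on both sides of most Nd2-mutant values, and gave 0.14 (SE 0.22; 0.018 without control 15 and 0.012 without control 16). Fis1, an outer-membrane protein that takes part in fission, read 256, 308, 294 and 266 in Nd2-mutant and 220.4, 331, 287 and 262 in control mice on probe ILMN_2939294, and 459, 522, 564 and 499.8 against 364, 551, 459.7 and 454 on ILMN_2939295. The strains overlapped at both, with control 15 lowest, and the log2 fold changes of 0.04 (SE 0.15) and 0.17 (SE 0.15) were -0.056 and 0.067 without that mouse.

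**Figure D2:**
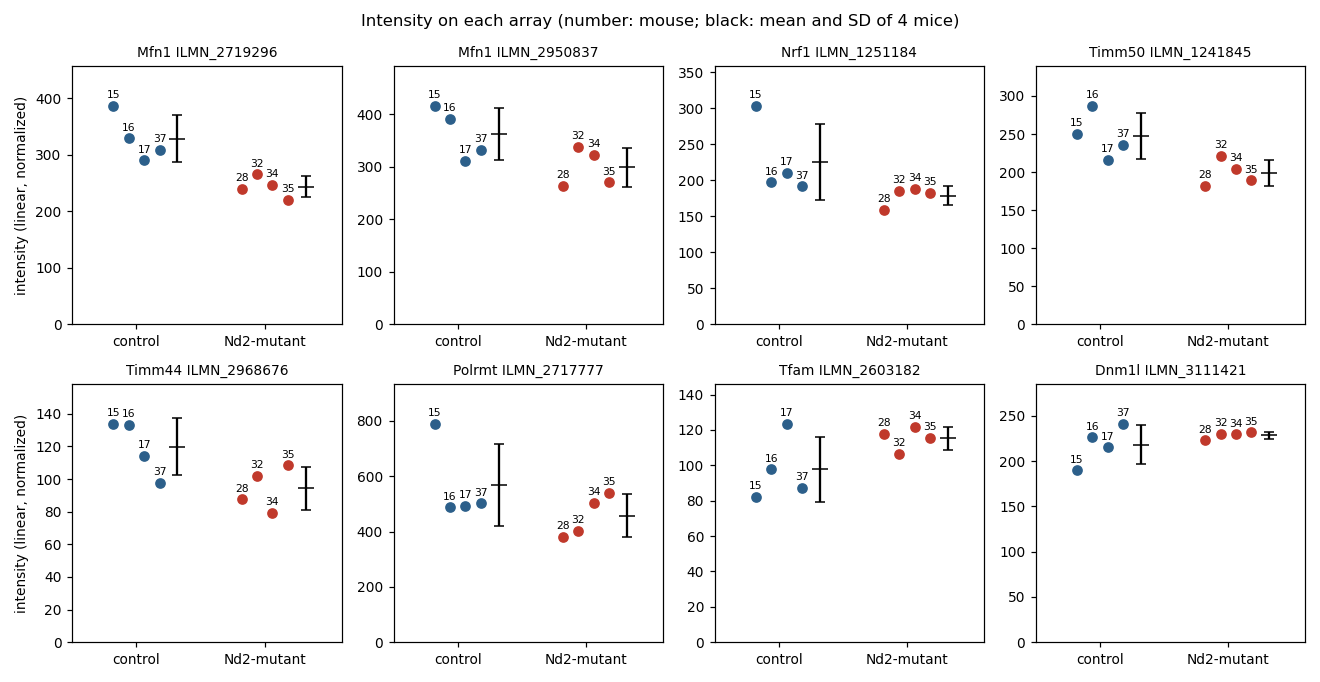
Intensity (linear scale, y axis) of selected member probes in each of the 4 Nd2-mutant and 4 control mice; each point is 1 array with its mouse number, black marks give the mean and SD of 4 mice, and the y axes start at 0. The groups do not overlap at Mfn1 ILMN_2719296 and at Nrf1, with Nd2-mutant values below the control values, but they overlap at Mfn1 ILMN_2950837. Control mouse 15 lies highest for Nrf1, Polrmt, Timm44 and both probes of Mfn1.

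Among the regulators of biogenesis, the coactivator Ppargc1a was not above background on any array, at 5.11, 0.349, -2.58 and -1.77 in Nd2-mutant and 0.171, 0.627, 2.02 and -0.297 in control mice. Ppargc1b, its relative, was detected on 2 arrays of each strain and read 5.24, 7.13, 16.9 and 22.3 in Nd2-mutant and 40.5, 17.6, 9.53 and 4.22 in control mice, close to background, and was not tested. Nrf1, a transcription factor of nuclear genes for respiration, read 159, 185, 188 and 183 in Nd2-mutant mice and 303, 197, 210.1 and 192 in controls. All Nd2-mutant values lay below all control values, but control 15 was far above the other controls and the gap between the groups was small, from 188 to 192. The log2 fold change was -0.29 (SE 0.16), with adjusted limma p = 0.648 and an exact permutation p of 0.0286. Without control 15 it was -0.15, and the groups still did not overlap. Gabpa, the DNA-binding subunit of GABP, had 1 tested probe of 3, at 46.2, 47.6, 48.2 and 35.3 in Nd2-mutant and 36.3, 25.9, 42.0 and 41.1 in control mice. Nd2 mutant 35 fell within the control range while the other Nd2-mutant values lay above it. The log2 fold change was 0.21 (SE 0.15; exact permutation p = 0.2), or 0.11 without control 16 and 0.29 without Nd2 mutant 35. The other Gabpa probes, at -3.7 to 0.345 and -2.58 to 13.1, were detected on at most 1 array.

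Of the genes for mtDNA upkeep, Tfam, which packages mtDNA and starts its transcription, had 2 tested probes. ILMN_2603182 read 118, 106, 122 and 115 in Nd2-mutant and 82.3, 97.8, 124 and 87.3 in control mice, where 3 controls lay below all Nd2-mutant mice and control 17 above. Its log2 fold change was 0.22 (SE 0.15; adjusted limma p = 0.685; exact permutation p = 0.143), or 0.15 without control 15. The other probe read 119, 125, 162 and 112 against 94.2, 110.4, 139 and 145, where the strains overlapped, and gave 0.08 (SE 0.17; -0.028 without control 15). The bases before the Tfam start site are chr10:71238045-71238294 (-), written 5′ to 3′ on the strand of the gene with the ETS match in capitals.
Tfam: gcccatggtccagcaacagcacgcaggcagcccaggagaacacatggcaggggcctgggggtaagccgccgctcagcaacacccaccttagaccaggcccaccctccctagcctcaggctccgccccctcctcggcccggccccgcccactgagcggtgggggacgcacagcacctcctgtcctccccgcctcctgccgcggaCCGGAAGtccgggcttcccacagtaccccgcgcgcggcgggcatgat

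Polrmt, the RNA polymerase of mitochondria, read 380.5, 402, 503 and 541 in Nd2-mutant and 791, 488, 493 and 503 in control mice. Control 15 was far above the rest and the other controls lay inside the Nd2-mutant range. The log2 fold change of -0.29 (SE 0.19) was -0.13 without that mouse. Polg, the catalytic subunit of the mtDNA polymerase, read 64.5, 78.8, 74.2 and 60.9 in Nd2-mutant and 110.4, 51.4, 49.9 and 78.8 in control mice, and its log2 fold change was -0.00 (SE 0.21). The male controls were the lowest 2 of the 8 and female control 15 the highest, so the difference was 0.39 in males and -0.39 in females. The limma interaction of strain and sex for Polg was 0.79 (SE 0.32; unadjusted p = 0.037) and did not pass after adjustment (adjusted p = 1). Polg2, the accessory subunit, was detected on 3 Nd2-mutant and 2 control arrays, at 11.0, 15.4, 11.8 and 14.0 and at 18.7, 18.1, 12.7 and 10.4, and was not tested. Tfb1m, which methylates mitochondrial ribosomal RNA, and Tfb2m, which helps start mtDNA transcription, had log2 fold changes of -0.20 (SE 0.27) and 0.02 (SE 0.18). Leaving out 1 mouse moved that of Tfb1m between -0.39 (without Nd2 mutant 32) and -0.041 (without Nd2 mutant 35). Their values overlapped widely, at 16.6 to 51.7 and 19.5 to 49.1 for Tfb1m and 93.8 to 167 and 118 to 157 for Tfb2m in Nd2-mutant and control mice.

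The translocases made up the largest share of the set. Of the 12 inner-membrane genes with 19 probes, 7 genes with 12 probes were tested, 3 probes each for Timm44 and Timm9. In Nd2-mutant cells 10 of these probes were lower (83.3%, against 49.8% of all) and 2 higher, with a median log2 fold change of -0.10. None passed at an unadjusted limma p under 0.05 (7.63% of all tested probes did) and none was free of overlap. The methods' t-test, on the log2 scale, gave 2 of the 12 at an unadjusted p under 0.05 (Timm44 and Timm50), against 6.7% of all tested probes. All 3 probes of Timm44, the docking protein of the import motor, were lower, at log2 fold changes of -0.25, -0.23 and -0.30. Timm50, which receives precursors from the TOM complex, read 182, 221, 204 and 189 in Nd2-mutant and 251, 287, 216 and 236 in control mice. The groups overlapped only between Nd2 mutant 32 and control 17, and the log2 fold change was -0.29 (SE 0.14; adjusted limma p = 0.639; exact permutation p = 0.0571). The 3 tested probes of Timm9, a small chaperone between the membranes, were at -0.11, -0.01 and -0.15, its partner Timm10 at -0.10, and Timm8a1 at -0.03. Timm17a, a part of the TIM23 channel, read 1309, 1354, 1366 and 1088 in Nd2-mutant mice and 781, 1648, 1502 and 1778 in controls. Control 15 was the lowest of the 8 and the other controls lay above every Nd2-mutant mouse, so the log2 fold change was -0.10 with that mouse and -0.36 without it. The 2 probes of Timm8b gave 0.32 and 0.15, and control 15 was again the lowest at both. Without it they gave 0.13 and -0.057.

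Timm23, the core of the channel, and Timm8a2 were detected on no array, and Timm13, Timm17b and Timm22 on 2 arrays or fewer, so that 5 of the 12 inner-membrane genes were not tested. Of the 6 outer-membrane genes, Tomm40, the import pore, was detected on 3 arrays of each strain and was not tested. The other 5, with 6 probes, gave 3 lower and 3 higher probes and a median log2 fold change of -0.00. They were the receptor parts Tomm22 (-0.14) and Tomm70a (0.06), the small subunits Tomm6 (0.13) and Tomm7 (-0.05), and the cytosolic helper Tomm34 (0.04 and -0.21). Tomm6 was the 1 member probe that was higher with the methods' t-test at an unadjusted p under 0.05, and its exact permutation p was 0.0571. Its Nd2-mutant values were 148 to 159.5 against 125 to 148 in controls.

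**Figure D3:**
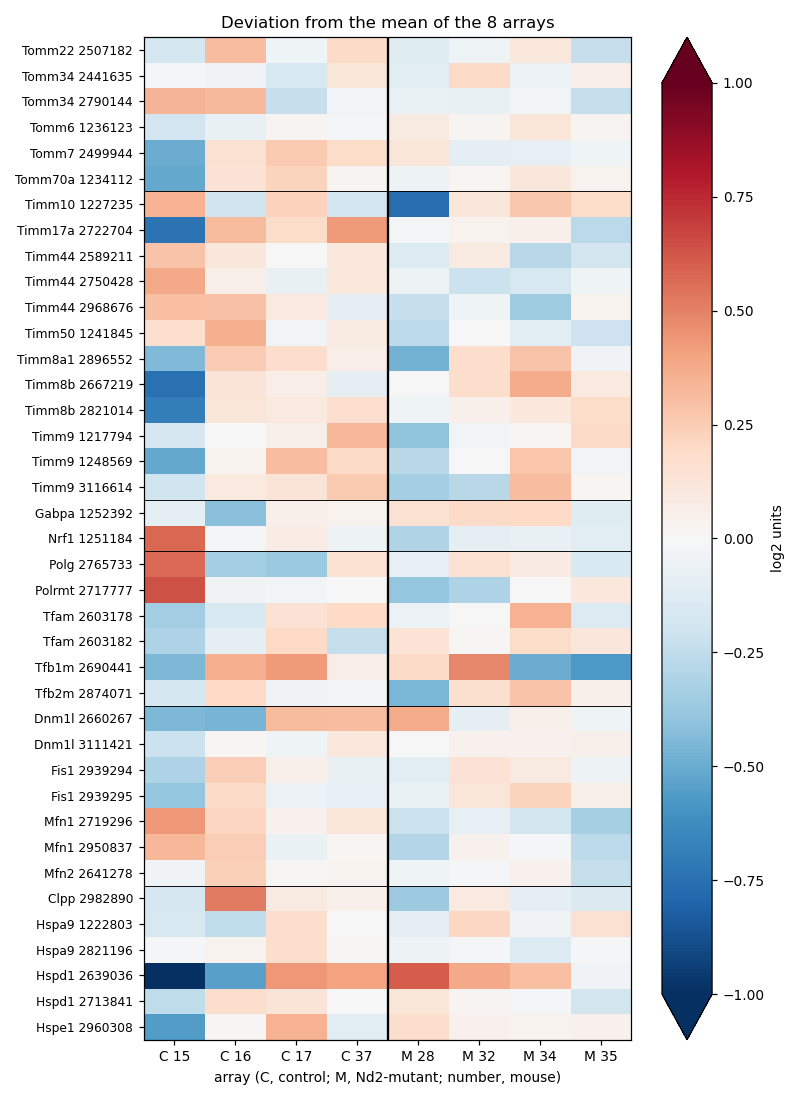
Deviation of each tested member probe (rows, grouped by function) on each array (columns) from the mean of that probe over the 8 arrays, on the log2(intensity + 16) scale, drawn from -1 to 1. Control mouse 15 has the largest deviations, in both directions, and is the lowest or highest array for 25 of 39 probes.

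Of the matrix chaperones and protease, Hspd1 (the chaperonin HSP60) and Hspe1 (its lid, HSP10) are neighbouring genes. Hspd1 probe ILMN_2639036 read 498, 423, 399 and 313 in Nd2-mutant mice and 100.1, 216, 441 and 430.0 in controls. Controls 15 and 16 lay below every Nd2-mutant mouse and the other controls did not, so the spread was wide, and the log2 fold change of 0.62 (SE 0.39, 95% interval -0.23 to 1.48) had an exact permutation p of 0.314. Without control 15 it was 0.21. The other Hspd1 probe, ILMN_2713841, read 2336, 2189.5, 2122 and 1891 against 1793, 2420.2, 2343 and 2154 and gave -0.02 (SE 0.15), so the probes pointed in opposite directions. Hspe1 read 675, 613, 609.7 and 613 in Nd2-mutant and 399, 598, 759.8 and 550.4 in control mice, with a log2 fold change of 0.15 (SE 0.18). The Nd2-mutant values lay within the control range, which again reached from control 15 at the bottom to control 17 at the top. The mitochondrial HSP70 Hspa9, which pulls precursors inward, gave 0.12 (SE 0.15; 2268, 2806, 2369.7 and 2691 in Nd2-mutant, 2165, 2035, 2739 and 2424 in control mice) and -0.10 (SE 0.12; 5242, 5393, 4934 and 5369, and 5393, 5569, 6115 and 5459). The strains overlapped widely at the first probe, while at the second every control value was as high as or above the highest Nd2-mutant value, with Nd2 mutant 32 and control 15 tied at 5393. Clpp, a protease subunit of the matrix, read 212, 299, 259 and 249 in Nd2-mutant and 246, 406, 297 and 288 in control mice. Its log2 fold change was -0.25 (SE 0.18; adjusted limma p = 0.696; exact permutation p = 0.286), or -0.12 without control 16 and -0.35 without control 15.

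The stretch between the start sites of Hspd1 and Hspe1, read from the RefSeq windows, is chr1:55087933-55088147, on the plus strand. The capitals mark a palindromic block of 2 overlapping ETS matches, 1 on each strand. It holds no NRF1 core.
Hspd1-Hspe1: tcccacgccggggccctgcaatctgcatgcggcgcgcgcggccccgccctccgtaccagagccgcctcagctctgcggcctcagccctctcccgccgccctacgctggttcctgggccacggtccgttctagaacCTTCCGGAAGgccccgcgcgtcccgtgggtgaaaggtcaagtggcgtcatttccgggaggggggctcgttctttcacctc

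Across the 8 arrays, the level of Hspe1 rose with each Hspd1 probe. For ILMN_2713841, Pearson's r was 0.731 (exact permutation p = 0.0337, adjusted over 2 relations 0.0337) and Spearman's rho 0.50 (exact permutation p = 0.216, adjusted 0.216). For ILMN_2639036, r was 0.832 (exact permutation p = 0.0262, adjusted 0.0337) and rho 0.714 (exact permutation p = 0.0576, adjusted 0.115). Leaving out the 2 arrays farthest from the median of Hspd1 (Nd2 mutant 35 and control 15, and controls 15 and 16) lowered r to 0.496 (exact permutation p = 0.361) and 0.328 (exact permutation p = 0.512). Without control 15 alone r was 0.378 and 0.343, so the relation rests on that array. With values centred within each strain, control 15 included, r over the 8 arrays was 0.799 and 0.816, and the 4 arrays of a single strain are too few for a value of their own.

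**Figure D4:**
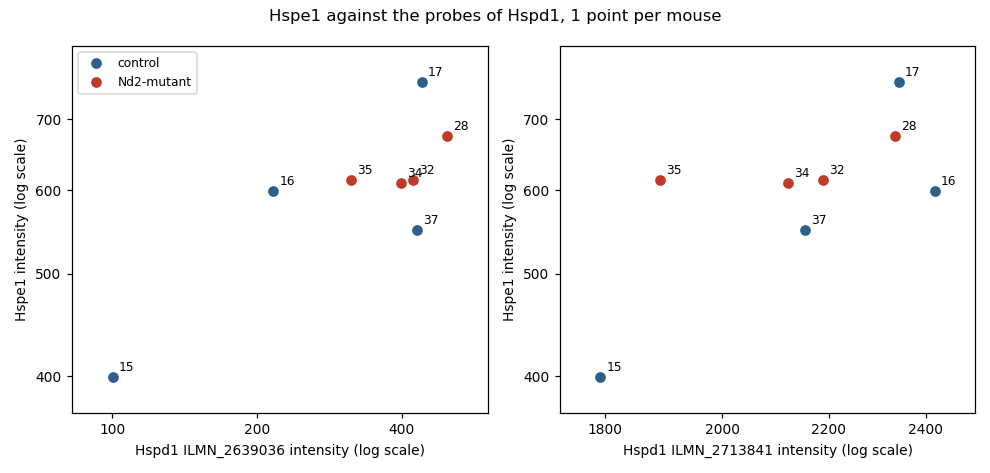
Intensity of Hspe1 (y axis) against each Hspd1 probe (x axis), 1 point per mouse, log2-spaced axes; labels give the mouse, ILMN_2639036 is on the left and ILMN_2713841 on the right. Control 15 lies at the lower left of both panels, and r falls from 0.832 to 0.343 (left) and from 0.731 to 0.378 (right) without it.

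Of the 37 genes, 34 had a RefSeq promoter window. At least 1 ETS match was in the windows of 18 of these (52.9%), against 9.93% of the 27025 genes with a window, and the NRF1 core was in 4 (11.8%; 5.19% of all): Hspd1, Opa1, Polrmt and Timm8b. In the 5180 tested genes whose symbol had a window, the shares were 21.3% for the ETS motif and 12.1% for the NRF1 core. As 5180 of 8003 is too few for a check of the tested genes as a whole, these 2 shares describe the matched genes only. No match was found before the Nrf1 start site. These matches describe letters in a window and not bound sites.

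The spread between mice was wider in the controls at 30 of 39 member probes (76.9%; 73.4% of all tested probes). Without control mouse 15 it was wider at 21 (53.8%; 55.3% of all). That mouse was the lowest of the 8 at 15 member probes (38.5%; 31.4% of all) and the highest at 10 (25.6%; 26.5% of all). With it left out, 28 of 40 tested member probes were lower in Nd2-mutant cells (70%; 52.1% of all) and the median log2 fold change moved from -0.03 to -0.13. Then 6 member probes did not overlap, all lower (15%, against 4.34% of all), for Hspa9, Mfn1, Nrf1, Timm17a, Tomm40 and Tomm7. Tomm40, not tested with all 8 mice, passed the filter here only through controls 16, 17 and 37. It read 14.3, 17.3 and 14.7 in them, near background, and 9.24 to 11.9 in Nd2-mutant mice. An unadjusted limma p under 0.05 was seen for 2 member probes (5.0%, against 7.91% of all), Mfn1 and Timm17a. Of the 39 probes, 8 changed direction, and the smallest adjusted p was 0.602. Nd2 mutant 28 was the lowest of the 8 at 10 member probes (14.5% of all tested probes). With that mouse left out instead, 18 of 39 member probes were lower in Nd2-mutant cells (46.2%; 47.9% of all). For the other mice this share ran from 48.7% without control 37 (49.8% of all) to 66.7% without Nd2 mutant 32 (49.2% of all).

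**Figure D5:**
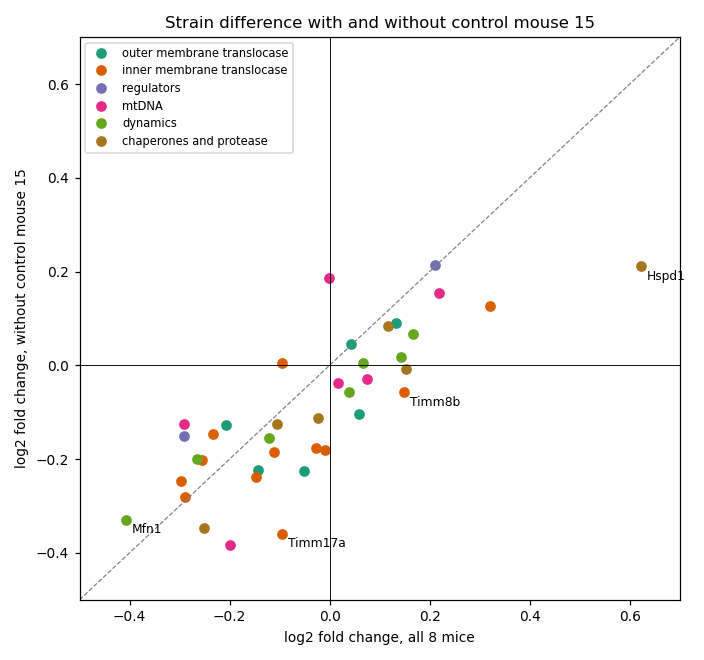
Log2 fold change of each tested member probe with all 8 mice (x axis) and without control mouse 15 (y axis); the diagonal marks no change. Most points lie below the diagonal, and the median moves from -0.03 to -0.13.

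Split by sex, with 2 mice per strain in each, 16 of 39 member probes were lower in male and higher in female Nd2-mutant cells (41.0%; 21.6% of all), while 14 were lower in both sexes (35.9%; 31.2% of all) and 7 higher in both (17.9%; 31.4% of all). The remaining 2, Polg among them, were higher in male and lower in female Nd2-mutant cells (5.13%; 15.8% of all). The interaction itself passed at an unadjusted limma p under 0.05 for 1 member probe, that of Polg (2.56%; 1.77% of all), and for 0 after adjustment (0.0096% of all). The female controls include mouse 15, and its part in this split was not tested.

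Further genes of the same processes were counted in the same way. Of 47 further genes of import, mtDNA, dynamics, regulation, mitophagy and proteolysis on the array, 37 were tested with 48 probes. 25 of these were higher and 23 lower, with a median of 0.04. The smallest unadjusted limma p was 0.0551, so 0 were under 0.05, against 7.63% of all tested probes. The methods' t-test gave 2 at an unadjusted p under 0.05, against 6.7% of all. 1 did not overlap between the strains (2.08%; 4.37% of all), a probe of Clpx, the unfoldase that feeds Clpp, named after its values were seen. It read 229.9, 191, 202 and 199 in Nd2-mutant and 136, 176, 173 and 186 in control mice, with a log2 fold change of 0.28 (SE 0.14; adjusted limma p = 0.639; exact permutation p = 0.0286). A second Clpx probe overlapped, at 62.2 to 83.8 and 40.1 to 79.8, and gave 0.23 (exact permutation p = 0.314). Among 88 tested probes of mitochondrial ribosomal proteins, 53 were higher and 35 lower, with a median of 0.04. Of these, 1 had an unadjusted limma p under 0.05 (1.14%, against 7.63% of all).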

How the data were processed

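RNA of skin fibroblasts from 4 Nd2-mutant and 4 control mice was measured on 8 MouseRef-8 v2.0 arrays. The authors quantile normalized the intensity of each probe and subtracted background in GenomeStudio, and deposited linear intensity values with a detection p-value per probe. The 2 deposited tables, 1 of them named as non-normalized, hold the same bytes, so normexp with quantile normalization was not run. The labels name no chip, so none was used as a block.

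Negative values were raised to 0 and transformed as log2(value + 16). Probes with a detection p-value under 0.01 on all 4 arrays of a strain were tested with limma 3.58.1 in R 4.3.3, with 2-sided p-values adjusted by Benjamini and Hochberg's method (10414 probes, threshold 0.05). Exact permutation tests of single probes were also run in R. Those of the Hspd1 and Hspe1 relation, and the figures, used Python 3.11.15. The limma step was tested on simulated data. With 1 array per mouse, p-values measure the spread between mice, culture and array included. The members and gene lists were chosen with earlier results of these data known. Values of every array are given for members with an unadjusted p under 0.05 or without overlap and for 19 genes set in the rule for naming genes (those named in the report for biogenesis, mtDNA polymerases and Tfam, dynamics, chaperones and proteases, with Pink1 and Lonp1, which had no probe). Further probes of Gabpa, Mfn1 and Opa1, near background, and all other members are given by range or count.

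Alternatives were 1 or 50 added, the linear scale, other detection filters, the methods' t-test (on log2 and, chosen after seeing the data, on linear values), a trend, array weights, sex as a term, centred arrays, and leaving out each mouse.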

Additional observations from a re-analysis of the deposited data

Results flagged for a closer look

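In 78 groups of 4 values (39 member probes in both strains), 6 had an extreme value farther from the others than Dixon's criterion allows, and chance gives about 1 in 20 groups, or 3.9. The value is the gap to the nearest mouse divided by the range. Nd2 mutant 35 was low for Gabpa, at 35.3 against 46.2 for the nearest (0.846). Nd2 mutant 28 was high for Hspe1, at 675 against 613 (0.945), and low for Nrf1, at 159 against 183 (0.832). Control 15 was high for Nrf1, at 303 against 210.1 (0.835), high for Polrmt, at 791 against 503 (0.952), and low for Timm8b, at 419.6 against 736 (0.899). The causes were not tested.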

How the results depend on the processing

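No member passed adjustment in any alternative named here or under processing, and 23 of 39 member probes kept their direction in all that are named under processing. No paired analysis was possible because each mouse number occurs in 1 strain only. Over the whole table, 0 probes passed adjustment with limma, 3 with no filter on detection and 1 with the methods' t-test. Member probes lower at an unadjusted p under 0.05 numbered 1, against 2 with 50 added or on the linear scale, 4 without a filter, 3 by the methods' t-test on log2 values, and 1 to 2 with a mouse left out (2 without control 15, 17 or 37, where 7.91%, 14% and 10.8% of all probes had such a p in either direction). Higher ones numbered 0, against 1 without a filter or by the methods' t-test and 0 to 2 with a mouse left out (2 without control 17). Member probes without overlap, lower, numbered 2, against 3 with arrays centred on the median (7.69%, against 2.16% of all) and 2 to 6 with a mouse left out. They numbered 5 without Nd2 mutant 32 and 6 without control 15 (Tomm40 among them) or 17, where 4.52%, 4.34% and 5.99% of all probes did so. Higher ones without overlap numbered 0 and ranged from 0 to 3 (2 without Nd2 mutant 35 and 3 without control 17, against 4.1% and 5.66% of all). The median of -0.03 ranged from -0.13 to 0.026, the lowest without control 15. 4 alternatives were chosen after seeing the data. The methods' t-test on linear intensities gave 3 lower and 1 higher member probes at an unadjusted p under 0.05, and 1 probe of the whole table passed adjustment. Without both control 15 and Nd2 mutant 35, 0 were lower at an unadjusted p under 0.05 (5.84% of all probes in either direction). In that setting 6 did not overlap and were lower, Tomm40 among them, and 2 higher (6% and 5.76% of all). With male mice only these counts were 0, 15 (34.9%, Tomm40 among them) and 4 (9.3%) of 43 tested member probes, with a median of -0.13. With female mice only they were 0, 10 (25%) and 8 (20%) of 40. In males 32 of 43 member probes were lower in Nd2-mutant cells (74.4%; 52.2% of all), and in females 16 of 40 (40%; 46.9% of all). An unadjusted p under 0.05 was seen for 5.04% of all probes in males and 3.21% in females. Groups of 2 mice separate more often (18.2% lower and 17.1% higher of all probes in males, 16.4% and 17.2% in females). With array weights, the direction turned for Dnm1l ILMN_2660267 (-0.098), Polg (0.11), Tfam ILMN_2603178 (-0.040), Timm10 (0.016), Timm8b ILMN_2821014 (-0.021) and Tomm70a (-0.052), and with 1 added for Polg (0.0095). With a mouse left out, these ranges crossed 0: Fis1 ILMN_2939294 -0.056 to 0.13, Hspd1 ILMN_2713841 -0.11 to 0.033, Hspe1 -0.0072 to 0.29, Polg -0.13 to 0.19, Tfam ILMN_2603178 -0.028 to 0.15, Tfb2m -0.074 to 0.17, Timm10 -0.20 to 0.14, Timm17a -0.36 to 0.031, Timm8a1 -0.18 to 0.13, Timm8b ILMN_2821014 -0.057 to 0.23, Timm9 ILMN_1217794 -0.19 to 0.0042 and ILMN_1248569 -0.18 to 0.092, Tomm34 ILMN_2441635 -0.014 to 0.0896, Tomm7 -0.22 to 0.028 and Tomm70a -0.10 to 0.14. The remaining tested probe of Fis1, Hspd1 (0.21 to 0.87), Tfam (0.15 to 0.32), Timm8b, Timm9 and Tomm34 kept its direction with each mouse left out. The cause was not tested. The number of arrays, and signal near background at 17 untested member probes, limit what these data can show.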
